A study of Mus musculus with 11 samples.

Results

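Haemoglobin of adult mice is built from alpha chains encoded by Hba-a1 and Hba-a2 and beta chains encoded by Hbb-bs and Hbb-bt, and Alas2 encodes the erythroid form of 5-aminolevulinate synthase, the enzyme that starts heme synthesis in red cell precursors. These 5 genes, taken by name, were described in every library of a mouse lung injury series. All 5 were among the 14700 genes of the deposited table, and all 5 passed the filter on low counts that left 14478 genes for testing. C57BL/6 mice aged 8 weeks received bleomycin, a DNA-damaging drug used to injure the lung, at 3 U/kg, or saline, each in 50 µL into the trachea, and RNA of whole lungs was sequenced at day 3. There were 5 bleomycin libraries and 6 saline libraries, numbered here as the submitters numbered them. Whether each library came from its own animal is not stated in the labels, and the tests therefore compare the groups against the spread of these libraries, which may be technical. Total counts ran from 13226339 to 19009284 per library, and Sftpc, the surfactant protein C gene of alveolar type 2 cells, averaged 16129 ± 3850 CPM (read counts set to an equal size of library) in bleomycin and 14988 ± 8076 CPM in saline lungs (SD, n = 5 and n = 6).

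Red cells of mammals lose their nucleus as they mature and shed their RNA soon after, so most globin mRNA of the blood lies in reticulocytes, the youngest red cells. In the nucleated precursor, GATA1 and KLF1 switch on the globin genes together with Alas2, and heme made in the mitochondria is joined to the chains. Alpha globin has also been described in the wall of small mouse arteries, where it limits the release of nitric oxide. In RNA of a whole organ, a change in the number of cells of a type and a change in the RNA held by each cell cannot be told apart.

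The paired genes are near copies, which bears on how their reads can be counted. The coding sequences of Hba-a1 and Hba-a2 have 429 bases each and differ at 1, and those of Hbb-bs and Hbb-bt have 444 bases each and also differ at 1. Both differences fall on the third position of a codon. Counted from the first base of the coding sequence, they are C381T from Hba-a1 to Hba-a2 and C417T from Hbb-bs to Hbb-bt, shown as capitals within 31 bases of each transcript.
Hba-a1: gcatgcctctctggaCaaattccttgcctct
Hba-a2: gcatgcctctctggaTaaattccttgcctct
Hbb-bs: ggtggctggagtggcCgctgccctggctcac
Hbb-bt: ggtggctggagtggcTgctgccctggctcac
The untranslated ends differ more, with 82.2% identity between the 3′ ends of the alpha pair and 69.4% between those of the beta pair. Of the stretches of 100 bases in each transcript, 43.5% in Hba-a1 and 25.5% in Hba-a2 do not occur in the other copy, against 37.4% in Hbb-bs and 45.2% in Hbb-bt. How reads that fit both copies were counted is not known, so the split within a pair is uncertain. The sum of a pair would be affected too if such reads were left out. Alpha and beta sequences share 56.7% of aligned coding bases (Hba-a1 against Hbb-bs), with no stretch of 50 bases in common.

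The 250 bases before the start of each gene are shown because the 5 genes moved together over the libraries. They are RefSeq sequence of the build GRCm38.p6, an older build than the GRCm39 of the counts. Hba-a1 lies at chr11:32283422-32283671 on the plus strand, Hbb-bs at chr7:103827929-103828178 and Hbb-bt at chr7:103813924-103814173 on the minus strand, and Alas2 at chrX:150547167-150547416 on the plus strand. The window of Hba-a2 (chr11:32296242-32296491, plus strand) is the same as that of Hba-a1 over all 247 bases that overlap once it is shifted by 3 bases, and is not repeated. Capitals mark the matches to 4 motifs.
Hba-a1 promoter: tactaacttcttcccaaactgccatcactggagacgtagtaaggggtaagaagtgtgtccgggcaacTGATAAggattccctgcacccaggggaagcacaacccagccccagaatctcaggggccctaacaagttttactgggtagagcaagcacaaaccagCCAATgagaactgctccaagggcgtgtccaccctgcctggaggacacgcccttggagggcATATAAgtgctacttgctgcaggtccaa
Hbb-bs promoter: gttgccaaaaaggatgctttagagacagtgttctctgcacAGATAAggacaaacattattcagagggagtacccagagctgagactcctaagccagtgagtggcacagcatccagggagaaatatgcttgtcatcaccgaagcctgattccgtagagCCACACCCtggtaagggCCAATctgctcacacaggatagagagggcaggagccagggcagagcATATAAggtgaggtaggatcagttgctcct
Hbb-bt promoter: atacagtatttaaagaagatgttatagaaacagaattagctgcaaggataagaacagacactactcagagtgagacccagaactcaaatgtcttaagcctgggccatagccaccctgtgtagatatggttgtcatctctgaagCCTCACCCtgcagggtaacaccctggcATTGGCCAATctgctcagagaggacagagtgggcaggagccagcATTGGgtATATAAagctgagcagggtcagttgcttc
Alas2 promoter: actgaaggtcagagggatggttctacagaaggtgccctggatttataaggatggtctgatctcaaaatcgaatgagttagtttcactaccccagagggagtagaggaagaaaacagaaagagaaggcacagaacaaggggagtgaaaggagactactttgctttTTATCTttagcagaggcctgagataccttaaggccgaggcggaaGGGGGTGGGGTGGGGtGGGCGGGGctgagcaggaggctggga
A GATA motif (the letters AGATAA or the letters TGATAA, or either of them with G in the last place, on either strand) was matched 1 time each in Hba-a1, Hba-a2, Hbb-bs and Alas2 and not in the window of Hbb-bt. It was present in 26.5% of 32851 mouse promoters of this length. CCAAT (either strand) and ATATAA (transcribed strand) were matched in all 4 globin genes and not in that of Alas2, against 33.8% and 5.57% of promoters. ATATAA began 28 to 31 bases before the start in the 4 globin genes. The CACCC-type motif CCNCNCCC (either strand), of the kind bound by KLF1, was matched in Hbb-bs, Hbb-bt and Alas2 and in neither alpha gene, against 45.9% of promoters. Its 4 matches in Alas2 overlap in part, and 2 of the 3 CCAAT matches of Hbb-bt adjoin. A match is a run of letters and shows no binding.

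All 5 genes were highest in 1 bleomycin library, and none of them passed the test of bleomycin against saline. Hba-a1 had 566, 681, 2159, 6156 and 632 CPM in bleomycin 1 to 5, after TMM scaling, which sets the libraries' sizes by the bulk of their genes. In saline lungs it had 232 CPM at the lowest, a median of 334 CPM and 1265 CPM at the highest, which was saline 5. All 5 bleomycin libraries lay above the other 5 saline libraries (508 CPM at most), and saline 5 lay above bleomycin 1, 2 and 5, so that the groups overlapped. In FPKM only 4 of the 5 bleomycin libraries did, as bleomycin 1 lay below saline 6 (453 against 455). How many of all genes had such an order with saline 5 set aside was not counted. The log2 fold change of bleomycin over saline was 2.07 ± 0.70 (SE). By edgeR's quasi-likelihood test, with Benjamini-Hochberg adjustment over all 14478 genes, its adjusted p was 0.0765.

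Hba-a2 had 215, 234, 694, 1042 and 149 CPM in bleomycin 1 to 5, against 63.3 to 465 CPM with a median of 122 CPM in saline lungs. Bleomycin 3 and 4 lay above every saline library, and the other 3 lay among them. Its log2 fold change was 1.36 ± 0.61 (adjusted p = 0.156 by edgeR).

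Of the beta genes, Hbb-bs had 883, 1069.9, 3782, 9308 and 1283 CPM in bleomycin 1 to 5, against 368 to 3507 CPM with a median of 684 CPM in saline lungs. As with Hba-a1 in CPM, every bleomycin library exceeded every saline library other than saline 5, the next of which had 759 CPM. The log2 fold change was 1.58 ± 0.74 (adjusted p = 0.172 by edgeR). Hbb-bt had 181, 247, 919, 2719 and 148 CPM in bleomycin 1 to 5, against 98.6 to 834 CPM with a median of 177 CPM in saline lungs. Here bleomycin 3 and 4 lay above every saline library, and bleomycin 1, 2 and 5 lay among them. The log2 fold change was 1.64 ± 0.80 (adjusted p = 0.192 by edgeR).

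Alas2, the enzyme gene, was high in the same libraries as the globins. It had 24.9, 42.8, 112, 513 and 42.0 CPM in bleomycin 1 to 5, against 10.4 to 121 CPM, the latter in saline 5, with a median of 21.8 CPM in saline lungs. After TMM scaling saline 5 exceeded every bleomycin library except bleomycin 4, and the groups overlapped. As a share of all counts bleomycin 3 was the higher of these 2, at 0.0118% against 0.0106%. The log2 fold change was 2.01 ± 0.84 (adjusted p = 0.133 by edgeR).

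**Figure D1:**
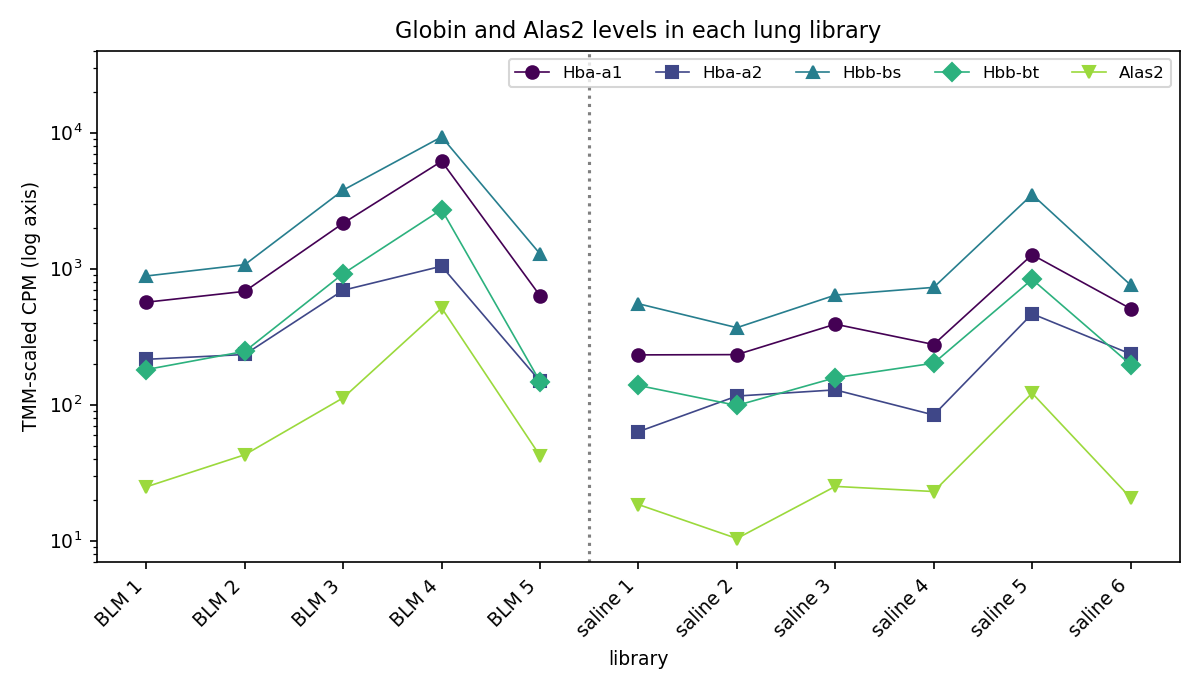
TMM-scaled CPM of the 5 genes (log axis) in each library, with bleomycin (BLM) 1 to 5 left of the dotted line and saline 1 to 6 right of it. Each line joins the libraries for 1 gene. All 5 lines peak at bleomycin 4 and again at saline 5, with Hba-a1 at 6156 and 1265 CPM.

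Thus 0 of the 5 genes were past the threshold of 0.05 by edgeR, where 10.3% of all genes tested were (4.63% higher and 5.7% lower in bleomycin). At an unadjusted p under 0.05 there were 3 (Hba-a1, Hba-a2 and Alas2), against 30% of all genes. DESeq2 called 1, Hba-a1 (log2 fold change 2.09, adjusted p = 0.0113), and limma on log2(FPKM + 1) called 0. Of all 14478 genes tested, DESeq2 called 2864 and limma 1368. For none of the 5 did the 5 bleomycin libraries lie on one side of the 6 saline libraries, as they did for 8.41% of genes.

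The size of the difference rested on 2 libraries. Without bleomycin 4 the log2 fold changes were 1.06 for Hba-a1, 0.83 for Hba-a2, 0.68 for Hbb-bs, 0.46 for Hbb-bt and 0.61 for Alas2, with adjusted p-values of 0.251 to 0.690 by edgeR. Without saline 5 they were 2.63, 1.90, 2.42, 2.41 and 2.91 in the same order. Past the threshold by edgeR were then 3 of the 5 genes: Hba-a1 (adjusted p = 0.0423), Hbb-bs (adjusted p = 0.0452) and Alas2 (adjusted p = 0.0470). In that fit 1120 of all 14445 genes tested were past it, 531 higher and 589 lower in bleomycin. All 120 fits of the 5 genes under another setting or with libraries left out had a positive log2 fold change, and 4 of them were past the threshold. These fits share most libraries and are not independent of each other.

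**Figure D2:**
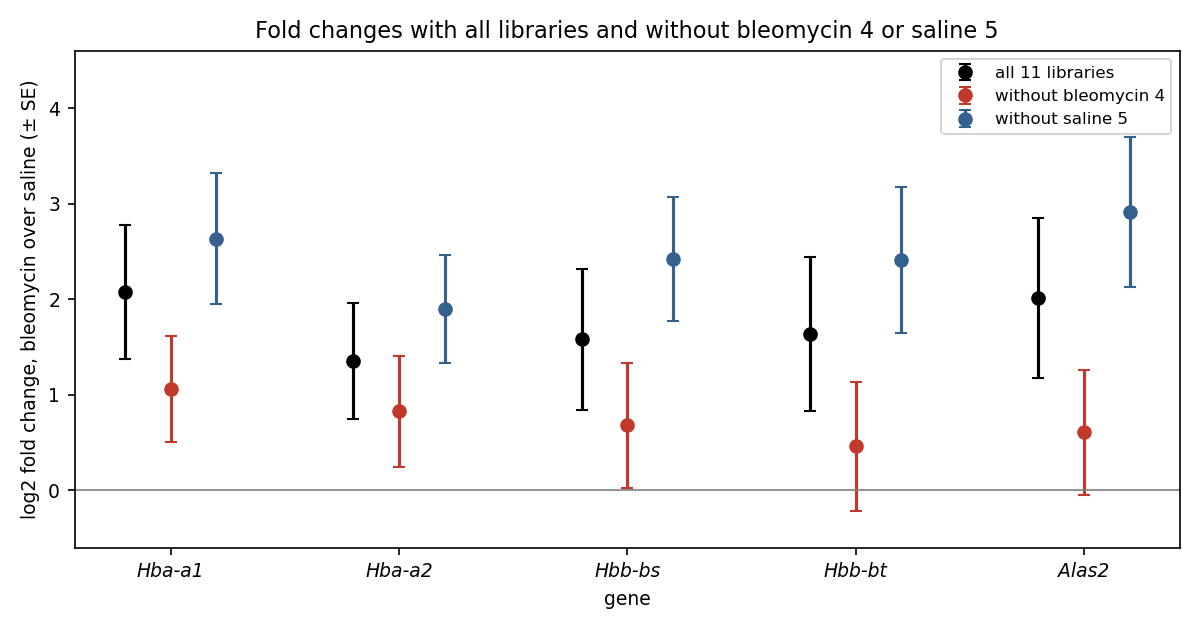
Log2 fold change of bleomycin over saline with its SE for each gene, from all 11 libraries (black), without bleomycin 4 (red) and without saline 5 (blue). Alas2 moves most, to 0.61 without bleomycin 4 and to 2.91 without saline 5, from 2.01 with all libraries.

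The spread within groups was wide for all 5 genes. Bleomycin 4 ranked first in each, and bleomycin 3 and saline 5 took the next places in each. Bleomycin 3 lay above saline 5 for the 4 globins. For Alas2 it lay below saline 5 after TMM scaling but above it in FPKM (23.6 against 21.3). Only 38 of the 14478 genes tested (0.262%), the 5 genes among them, had these 3 libraries on top. The range over the 11 libraries on the log2 CPM scale was 4.73 for Hba-a1, 4.04 for Hba-a2, 4.66 for Hbb-bs, 4.78 for Hbb-bt and 5.61 for Alas2, where the median gene had 1.44. A larger range was found for 139 genes in the case of Alas2 and for 576 in the case of Hba-a2. The 4 globins together took 2.13% of all counts in bleomycin 4 (95% Wilson interval 2.12 to 2.14%), 0.791% in bleomycin 3 and 0.179 to 0.250% in the other 3 bleomycin libraries. They took 0.532% in saline 5 and 0.0832 to 0.182% in the other 5 saline libraries.

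Per length, the deposited FPKM values put Hbb-bs first and Alas2 last in every library. The lengths behind those values, as counts over FPKM give them, are 1195 bases for Hba-a1, 1050.0 for Hba-a2, 1381 for Hbb-bs, 704 for Hbb-bt and 4992 for Alas2. The reference transcripts have 699, 554, 628, 703 and 2037 bases in the same order, so the order of the middle 3 genes depends on the length used. Hbb-bs was the highest in all 11 libraries, with a mean of 2571 ± 2882 FPKM in bleomycin and 725 ± 742 FPKM in saline lungs. Hba-a1 came next in 8 of 11 libraries, with 1857 ± 2233 FPKM in bleomycin and 380 ± 290 FPKM in saline lungs. In saline 1, 4 and 5 the FPKM of Hbb-bt stood above that of Hba-a1 instead, but per base of the reference transcript Hba-a1 was the higher in all 11 libraries. Hbb-bt had 1303 ± 1730 FPKM in bleomycin and 353 ± 340 FPKM in saline lungs. Hba-a2 had 479 ± 409 FPKM in bleomycin and 164 ± 128 FPKM in saline lungs, below Hbb-bt in all 11 libraries, but per base of the reference transcript it was above Hbb-bt in 6 of 11, so that no order of these 2 is given. Alas2 was the lowest in all 11, with 32.3 ± 46.3 FPKM in bleomycin and 6.68 ± 7.24 FPKM in saline lungs (SD, n = 5 and n = 6 for each gene).

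Ratios between the genes within a library, taken on counts, do not depend on how libraries are scaled. None of 4 ratios differed between the groups past the threshold in an exact two-sided permutation test over 462 splits, whose smallest possible p is 0.00216, with adjustment over the 4. Hba-a1 over Hba-a2 was 2.63, 2.91, 3.11, 5.91 and 4.25 in bleomycin 1 to 5, a mean of 3.76 ± 1.35, against 2.02 to 3.67 and a mean of 2.82 ± 0.647 in saline lungs. The difference in mean log2 ratio was 0.38 (exact permutation p = 0.165, adjusted p = 0.346). Bleomycin 4 and 5 lay above every saline library, and the other 3 bleomycin libraries lay among them.

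Hbb-bt over Hbb-bs was 0.205, 0.230, 0.243, 0.292 and 0.115 in bleomycin 1 to 5, a mean of 0.217 ± 0.0652, against 0.238 to 0.277 and a mean of 0.257 ± 0.0144 in saline lungs. The difference in mean log2 ratio was -0.30 (exact permutation p = 0.173, adjusted p = 0.346). The 6 saline libraries lay close together, while the bleomycin libraries held both the highest ratio, in bleomycin 4, and the lowest, in bleomycin 5. The 95% Wilson interval of the ratio in bleomycin 5 was 0.111 to 0.120, on 2839 and 24653 counts. Without bleomycin 5 the log2 difference was -0.09, and without bleomycin 4 it was -0.43 (exact permutation p = 0.0190, adjusted p = 0.0762).

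Alas2 had 13.5, 19.2, 14.9, 26.7 and 19.0 counts per 1000 globin counts in bleomycin 1 to 5, a mean of 18.6 ± 5.16, against a mean of 16.7 ± 3.40 in saline lungs. The difference in mean log2 ratio was 0.14 (exact permutation p = 0.481, adjusted p = 0.481). Bleomycin 4 had the highest share of Alas2 as well as the most globin, while bleomycin 3, second in globin, had 1 of the lower shares.

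**Figure D3:**
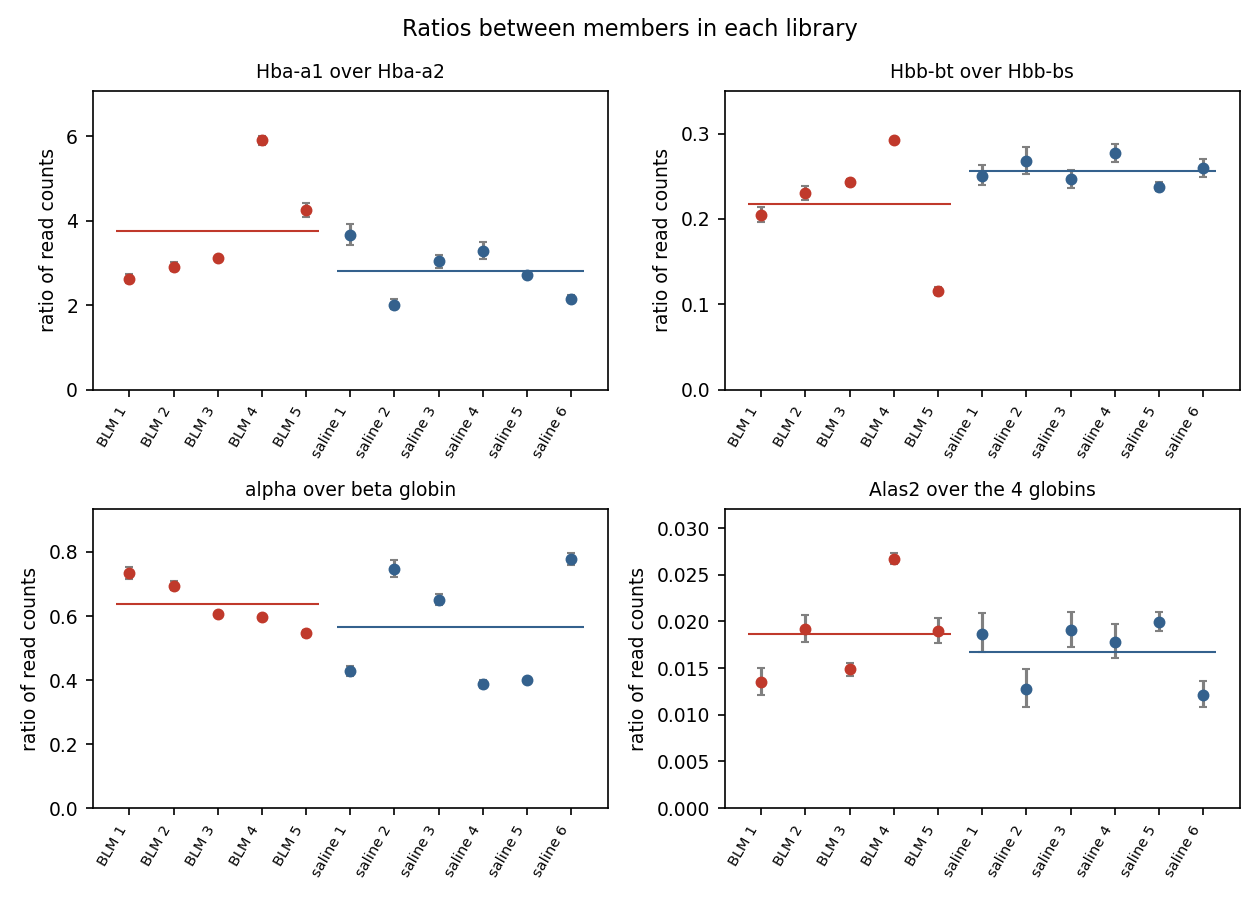
Ratios of read counts in each library, with bleomycin (BLM, red) left of saline (blue). Points are libraries, bars their 95% Wilson intervals (counting error only) and lines the group means. The ratio of Hbb-bt to Hbb-bs stays between 0.238 and 0.277 in saline and lies outside that range in 4 of 5 bleomycin libraries.

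The ratio of alpha to beta globin counts split the saline libraries. It was 0.735, 0.695, 0.607, 0.598 and 0.546 in bleomycin 1 to 5, a mean of 0.636 ± 0.0769, against 0.388 to 0.779 and a mean of 0.565 ± 0.181 in saline lungs. The difference in mean log2 ratio was 0.23 (exact permutation p = 0.312, adjusted p = 0.416). Saline 1, 4 and 5 had 0.388 to 0.428, below the 0.546 to 0.779 of the other 8 libraries. The same 3 libraries differed in the base composition of their counts. The slope of each gene's log2 deviation on the GC content of its transcript was -0.40 to -0.32 per 10 points of GC in these 3, and 0.01 to 0.30 in the other 8. Transcripts of Hba-a1 and Hba-a2 have 57.2% and 56.9% GC, and those of Hbb-bs and Hbb-bt have 51.3% and 50.8%. With that trend taken out of each library, a step added after the data were seen, the ratio was 0.466 to 0.531 in saline 1, 4 and 5, whereas the other 8 libraries had 0.495 to 0.747. The log2 difference between the groups was then -0.013 (exact permutation p = 0.935). The part of base composition in the split was not tested further. The summed level of 15 platelet genes was also high in these 3 libraries, at 1324 to 1531 CPM, against 272 to 596 CPM in the other 8, and its part was not tested.

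**Figure D4:**
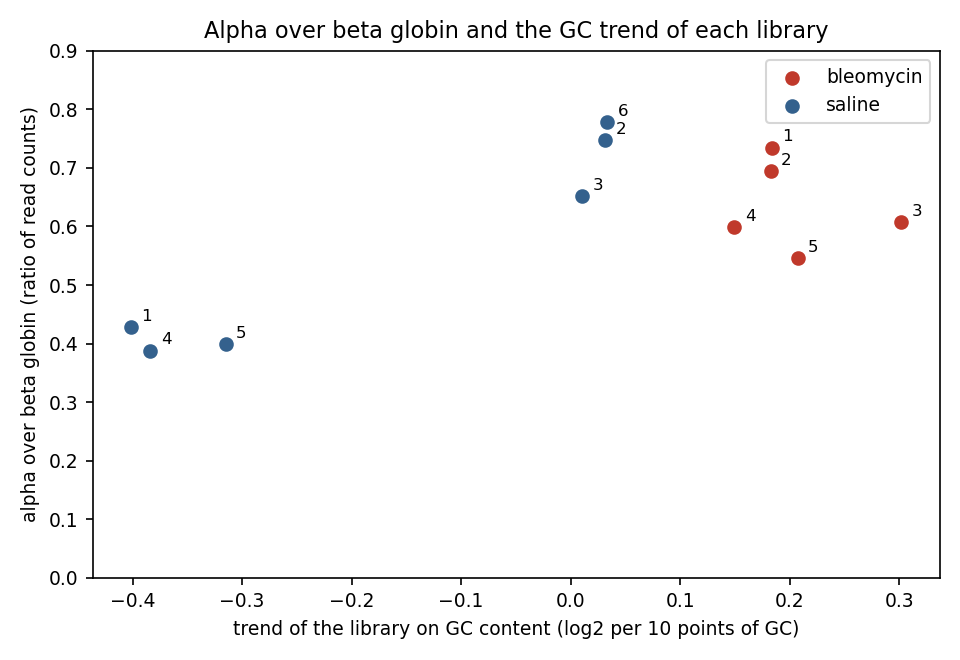
Ratio of alpha to beta globin counts (vertical axis) against the slope of each library on GC content (horizontal axis, log2 per 10 points of GC), with bleomycin in red and saline in blue and the library number at each point. Saline 1, 4 and 5 lie apart at the lower left, at 0.388 to 0.428.

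The genes whose pattern over the 11 libraries was most like that of the summed globins included known red cell genes. Likeness was the root mean square difference of log2 CPM from the summed globins after each was centred on its own mean. Alas2 had 0.319, and 0 of the 14167 genes ranked, which left out the 5 genes, had a smaller value. The median gene had 1.40 and the globin sum itself had an SD of 1.33. The next was Slc4a1 (0.403), which encodes the anion exchanger band 3 of the red cell membrane, with 1.28, 3.46, 12.9, 31.6 and 3.96 CPM in bleomycin 1 to 5 and 1.54 to 8.96 CPM in saline lungs. Bpgm (0.561), the red cell enzyme that makes 2,3-bisphosphoglycerate, followed, with 51.1 to 346 CPM in bleomycin and 39.6 to 133 CPM in saline lungs. For both the top libraries were again bleomycin 4, bleomycin 3 and saline 5.

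Further down the 10 genes most like the globins were Pcdhac2 (0.813), Gpr182 (0.814), Trim10 (0.821), Ace (0.856), Chsy3 (0.871) and Col13a1 (0.883). Trim10, an erythroid ubiquitin ligase, was at most 5.32 CPM. Ace encodes angiotensin-converting enzyme, which lung capillaries carry on their surface, and Gpr182 encodes an endothelial receptor. Col13a1 encodes a transmembrane collagen. Of these 10 genes, 2 were past the threshold by edgeR, Ace (log2 fold change 1.36 ± 0.34, adjusted p = 0.0291) and Col13a1 (log2 fold change 1.55 ± 0.35, adjusted p = 0.0207). Neither had saline 5 and bleomycin 3 and 4 as its top 3 libraries.

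**Figure D5:**
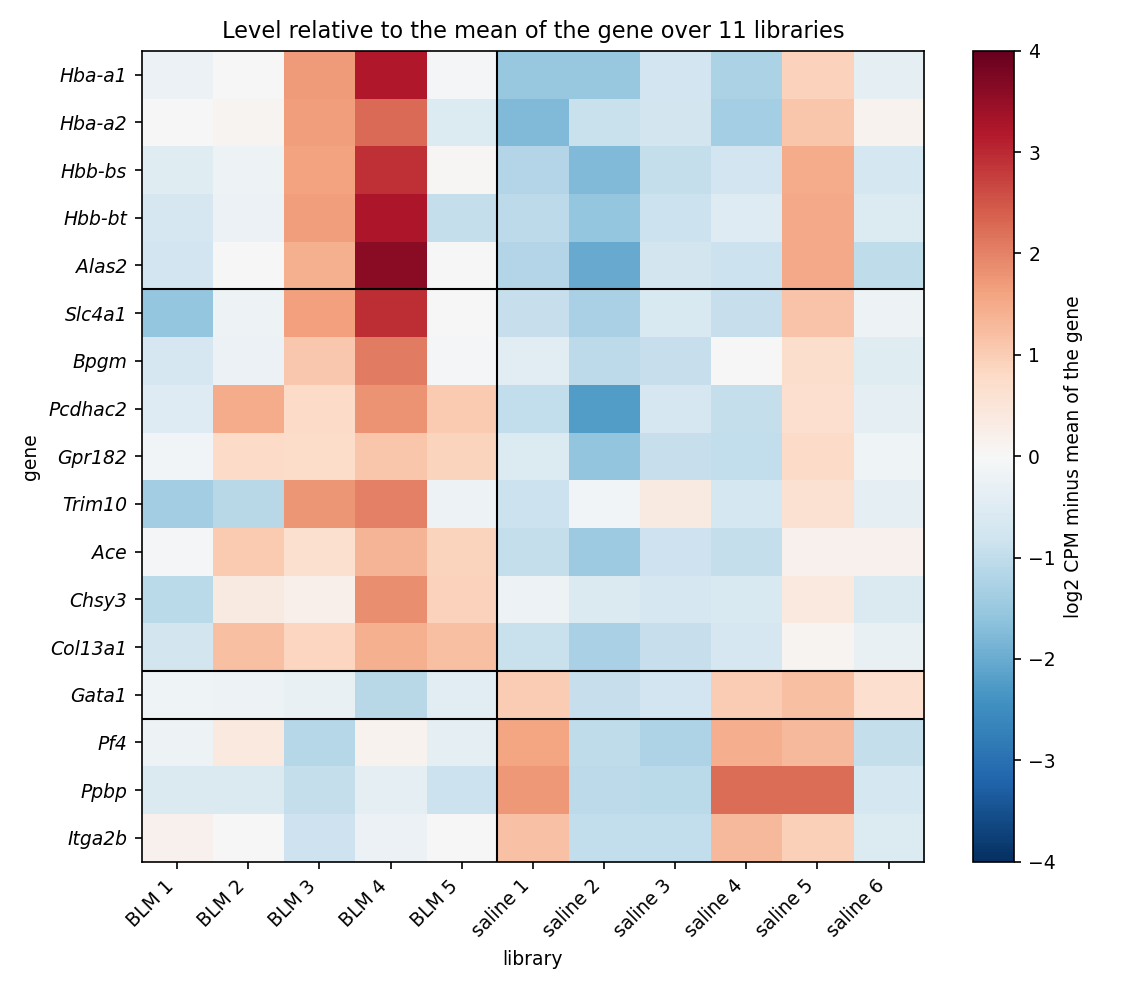
Log2 CPM minus the mean of the gene (colour, blue below and red above the mean) for the 5 genes, 8 of the 10 genes most like the summed globins, Gata1, and 3 platelet genes, in bleomycin (BLM) 1 to 5 left of the vertical line and saline 1 to 6 right of it. The platelet genes Pf4, Ppbp and Itga2b are high in saline 1, 4 and 5, and of these 3 the globins are high in saline 5 alone.

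Of 13 tested genes of the red cell membrane and its carriers, 0 passed the test by edgeR, and their median log2 fold change was 0.11, where that of all genes was -0.04. Aqp1, the water channel of red cells and capillaries and the most abundant of them, had 715 ± 232 CPM in bleomycin and 481 ± 276 CPM in saline lungs (log2 fold change 0.57, adjusted p = 0.291 by edgeR). Slc4a1 was 1 of 2 among the 13 with the same 3 libraries on top. The genes of embryonic globin chains and of the red cell factors Ahsp and Klf1 were not analysed here.

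Of 19 tested genes of erythroid maturation and its regulators, 2 were higher in bleomycin past the threshold and 0 lower, and the median log2 fold change was 0.01. Among all genes tested, 4.63% were higher and 5.7% lower past it. Zfpm1, which encodes the GATA1 cofactor FOG-1, had 14.9 ± 2.89 CPM in bleomycin and 7.27 ± 3.06 CPM in saline lungs (log2 fold change 1.04, adjusted p = 0.0489). Ube2o, which encodes a ubiquitin ligase that clears proteins from reticulocytes, had 50.3 ± 18.8 CPM in bleomycin and 30.0 ± 3.92 CPM in saline lungs (log2 fold change 0.75, adjusted p = 0.0419). With any 1 library left out, 0 or 1 gene of the list was called, and with the correction for GC content 0 were. Bnip3l, which clears mitochondria from reticulocytes, had 179 ± 30.3 CPM in bleomycin and 213 ± 52.5 CPM in saline lungs (adjusted p = 0.375). Gata1 had 1.98 ± 0.486 CPM in bleomycin and 4.08 ± 2.15 CPM in saline lungs (log2 fold change -1.04, adjusted p = 0.128 by edgeR). It was highest in saline 1, 4 and 5, the libraries high in platelet genes, at 5.47, 5.52 and 6.28 CPM. Its lowest value was in bleomycin 4, at 1.16 CPM.

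Heme synthesis beyond Alas2 did not pass the test in any of 16 genes by edgeR, and the median log2 fold change was 0.21. Tmem14c, a mitochondrial carrier needed for the late steps, had 55.2 ± 14.9 CPM in bleomycin and 77.8 ± 16.3 CPM in saline lungs (log2 fold change -0.50, adjusted p = 0.128). Fech, whose enzyme inserts iron to make heme, was chosen after its values were seen. It was the only 1 of the 16 with the same 3 libraries on top, at 144 CPM in bleomycin 4, 73.7 CPM in bleomycin 3 and 64.3 CPM in saline 5. Alas1, the form of the first enzyme used outside red cells and likewise chosen after its values were seen, had 603 ± 250 CPM in bleomycin and 467 ± 158 CPM in saline lungs (adjusted p = 0.412 by edgeR). It was highest in bleomycin 3, not bleomycin 4.

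Among 29 genes of heme breakdown, haemoglobin clearance and iron handling, 1 was higher and 3 were lower in bleomycin past the threshold, with a median log2 fold change of -0.41. Of all genes tested, 10.3% were past it. Flvcr2, a membrane transporter described as a choline and heme carrier, rose to 10.7 ± 2.07 CPM in bleomycin, against 5.41 ± 1.53 CPM in saline lungs (log2 fold change 0.99, adjusted p = 0.0260 by edgeR). Spic, the factor that sets up the iron-recycling macrophages of the spleen, fell to 0.379 ± 0.243 CPM in bleomycin, against 2.26 ± 0.759 CPM in saline lungs (log2 fold change -2.56, adjusted p = 0.00642). Steap4, a metalloreductase, fell to 33.6 ± 10.4 CPM in bleomycin, against 81.1 ± 31.2 CPM in saline lungs (log2 fold change -1.27, adjusted p = 0.0186). The third lower gene, outside the naming rule and named after its value was seen, was Flvcr1, a heme exporter (log2 fold change -0.68, adjusted p = 0.0102). Without bleomycin 1 the list had 2 higher and 5 lower genes, and without bleomycin 2 it had 0 higher and 2 lower. Among all genes tested there were 679 higher and 850 lower without bleomycin 1, and 264 and 293 without bleomycin 2. Without bleomycin 4, bleomycin 5 or saline 1, and with the replicate block, 0 genes of the list were higher, so the call of Flvcr2 was lost. Hp, which encodes the haemoglobin-binding protein haptoglobin, had 2068 ± 552 CPM in bleomycin and 2758 ± 1646 CPM in saline lungs (adjusted p = 0.517).

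Of 6 partners of alpha globin in the vessel wall, 0 passed the test by edgeR, with a median log2 fold change of 0.17. Cyb5a, a cytochrome b5, had 324 ± 75.0 CPM in bleomycin and 467 ± 257 CPM in saline lungs (adjusted p = 0.349). Of 3 other globin genes, 0 passed, and Cygb, cytoglobin, had 53.9 ± 14.3 CPM in bleomycin and 47.0 ± 15.7 CPM in saline lungs (adjusted p = 0.618).

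The summed levels of endothelial and of alveolar type 2 genes were high in saline 5 too, though not every gene followed. The summed level of 18 endothelial genes was 5386 to 6343 CPM in bleomycin and 1776 to 5953 CPM in saline lungs, and the highest saline library was again saline 5, with the next at 4630 CPM. Of these 18 genes, 4 were higher in bleomycin and 0 lower, among them Vwf, von Willebrand factor (log2 fold change 1.26, adjusted p = 0.0334 by edgeR), Gpihbp1, a capillary lipase anchor (1.19, adjusted p = 0.0307), and Eng, endoglin (1.11, adjusted p = 0.0241). The fourth was Plvap (1.05, adjusted p = 0.0416), which was named after its value was seen. With the correction for GC content 0 of them were called, as also without bleomycin 2, 4 or 5. With any other library left out there were 1 to 7, the most without saline 6, where 981 of all 14396 genes tested were higher. Cdh5 and Kdr, chosen after their values were seen, had the same 3 libraries on top as the globins, with a smaller spread: Cdh5 had 421, 414 and 400 CPM in bleomycin 4, bleomycin 3 and saline 5. The summed level of 13 alveolar type 2 genes was 23310.0 to 34816 CPM in bleomycin and 12933 to 46280.0 CPM in saline lungs, again with saline 5 the highest and the next saline library at 26258 CPM. Most of that sum in saline 5 was Sftpc, at 30370 CPM. Abca3 was lowest in saline 5, at 84.9 CPM. Sftpb and Muc1 had 1709 and 229 CPM in saline 5, below 1994 and 260 CPM in saline 6. Of the endothelial genes, Egfl7 had 306 CPM in saline 5 and 548 CPM in saline 6. These genes were picked after their values were seen. The part of endothelial and type 2 cell RNA in the globin values was not tested.

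Among blood cells, 12 monocyte genes held 2 higher and 4 lower in bleomycin, with a median log2 fold change of -1.43, among them Ccr2 (-1.80, adjusted p = 0.00601), Spn (-1.78, adjusted p = 0.00709) and Nr4a1 (2.08, adjusted p = 0.0189 by edgeR). Ace, described above, is the other higher gene of that list, and the other 2 lower genes, named after their values were seen, are Treml4 (-1.68) and Itgal (-1.44). Of 12 B cell genes, Spib was lower (log2 fold change -2.01, adjusted p = 0.0348) and none higher. Of 7 neutrophil genes, Padi4 was higher (1.70, adjusted p = 0.0377) and none lower, while Lcn2, the most abundant of them, had an adjusted p of 0.442. Of 15 platelet genes 0 passed by edgeR, with a median of -0.81, and Ppbp, a platelet chemokine, had 59.7 ± 9.41 CPM in bleomycin and 224 ± 197 CPM in saline lungs (adjusted p = 0.0760). Of 13 alveolar type 2 genes, 2 were higher and 0 lower, Sftpb (1.27, adjusted p = 0.0149) and Abca3 (1.15, adjusted p = 0.00312). Without saline 5 there were 4 higher, where 531 of all 14445 genes tested were. Of 16 macrophage genes 0 passed by edgeR, with a median of -0.46, and C1qa, a complement gene, had an adjusted p of 0.139. Of the lists with 0 genes called by edgeR, those with an unadjusted p under 0.05 numbered 1 for other globins, 3 for the red cell membrane, 5 for heme synthesis, 1 for partners of alpha globin, 3 for platelets and 6 for macrophages, and DESeq2 called 1, 1, 1, 0, 2 and 3 of them. Of all 14478 genes tested, 30% had an unadjusted edgeR p under 0.05, and DESeq2 called 2864. After adjustment edgeR called 4.63% higher and 5.7% lower. The counts of all lists are to be read beside these shares. The B cell count was 0 in 15 of 24 alternatives, the neutrophil count differed from 1 in 16 of 24, and without saline 2 and 3 the platelet list had 8 lower genes. Of all 14477 genes tested without saline 2 and 3, 1335 were higher and 1443 lower past the threshold. No gene of the platelet, neutrophil, monocyte, B cell, type 2 or macrophage lists had bleomycin 4, bleomycin 3 and saline 5 on top. Only 0.262% of all genes tested did, so lists this short would mostly hold 0 in any case. The part of blood content in the globin values was not tested.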

How the data were processed

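Polyadenylated RNA of whole lungs was sequenced in pairs, with dUTP in the second strand, per the labels' protocols. The authors deposited 1 table of whole-number read counts and FPKM values (counts scaled to gene length and library size) per gene and library. HISAT2 2.2.1, HTSeq 2.0.2, FastQC and the build GRCm39 are listed in the submitters' processing notes. Not given in the sources used here are the annotation, the strand setting and the handling of reads that fit several genes. Counts were tested as deposited with edgeR 4.0.16 in R 4.3.3 (filterByExpr with a count minimum of 10, TMM scaling, quasi-likelihood test, two-sided, Benjamini-Hochberg over 14478 genes, threshold 0.05), on 5 bleomycin and 6 saline libraries. The test was tried on simulated data. SE is the absolute log2 fold change over the root of F. Wilson intervals cover counting error only. Alternatives were DESeq2 1.42.0, limma 3.58.1 on log2(FPKM + 1) and log2(FPKM + 0.1), other scalings and filters, a replicate block, libraries left out and, added after seeing the data, a GC correction by a smooth curve (span 0.3) and the length of the reference transcript. Transcript GC was found for 99.9% of genes tested.

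The genes and the 13 gene lists were chosen with earlier results of these data known. Named from each list are the 1 gene of highest mean FPKM and up to 3 of the genes past the threshold, those of largest change, and the 10 genes most like the summed globins, leaving out predicted genes. Some genes under this rule are not reported here. All 5 genes were found in the RefSeq promoter table. 3 rows without a symbol were tested but not named.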

Additional observations from a re-analysis of the deposited data

Results flagged for a closer look

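In 6 of the 18 groups of values checked (9 quantities in each of 2 treatments), the highest library lay far from the next. Far means a gap over a set share of the group's range, 0.71 in bleomycin and 0.625 in saline. That limit gives about 1 of 20 groups by chance only for values with a normal distribution. The values were taken without logs and the CPM values were skewed, so that rate may not hold here. Hba-a1 had 6156 CPM in bleomycin 4, with the next bleomycin library at 2159 CPM. Alas2 had 513 CPM in bleomycin 4, with the next bleomycin library at 112 CPM. The other 4 were all saline 5, the highest of its group. It had 1265 CPM of Hba-a1, with the next saline library at 508 CPM. It had 3507 CPM of Hbb-bs, with the next at 759 CPM, and 834 CPM of Hbb-bt, with the next at 202 CPM. It had 121 CPM of Alas2, with the next at 25.0 CPM. These values come from the same 2 libraries and are not independent of each other.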

How the results depend on the processing

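The log2 fold changes of the 5 genes kept their direction in all 120 alternative fits. Those at a threshold of 0.01 repeat the main fit, and the others share most libraries, so the fits are not independent of each other. Hba-a1 was past the threshold with DESeq2 (2.09) and, with each library left out in turn, ran from 1.06 without bleomycin 4 to 2.63 without saline 5. Hbb-bs ran from 0.68 to 2.42 and Alas2 from 0.61 to 2.91 in the same way, with the high end past the threshold. The number of genes past the threshold among all tested was 1496 (671 higher and 825 lower), and 557 to 2118 with each library left out in turn. It was 732 with the stricter filter, 2864 with DESeq2, 247 at a threshold of 0.01, 966 with the GC correction, 2778 when saline 2 and 3 were dropped and 876 when saline 1 and 4 were. Total-count scaling moved the median of all genes to 0.14 on the log2 scale, against -0.04 with TMM, gave Hba-a1 2.29 and Alas2 2.27, and called 894 higher and 380 lower, and limma on log2(FPKM + 1) 1022 and 346. The log2 difference of the alpha to beta ratio turned to -0.013 with the GC correction. With the replicate block, 513 genes were past the threshold and the 5 genes had log2 fold changes of 1.76, 1.55, 1.47, 1.24 and 1.54 (Hba-a1, Hba-a2, Hbb-bs, Hbb-bt, Alas2), none past it. Libraries with the same number did not deviate together in any of 5 pairs (0 with a correlation over 0.1), so the numbers are not read as pairs. The cause of these shifts was not tested. Depth does not limit the globin values, while Trim10 rests on few reads. So do Pcdhac2 (0 to 1.98 CPM), Spic (0.151 to 0.750 CPM in bleomycin) and Gata1. Slc4a1 was low in most libraries, with 1.28 CPM in bleomycin 1.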

Other observations

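Some genes of heme and iron handling were high in other saline libraries, together with some markers of macrophages, and are given as values only. The genes were chosen after their values were seen. Hmox1, which encodes the heme-degrading enzyme heme oxygenase 1, had 413 CPM in saline 2 and 317 CPM in saline 3, where the 5 bleomycin libraries had 43.0 to 73.8 CPM and the other 4 saline libraries 36.6 to 54.0 CPM. Slc25a37, mitoferrin 1, which brings iron into the mitochondria of red cell precursors, had 242 and 187 CPM in the same 2 libraries, where the bleomycin libraries had 80.1 to 140 CPM and the other saline libraries 51.7 to 105 CPM. Some but not all markers of macrophages were high in the same 2 libraries. The summed level of 16 of them was 2893 CPM in saline 2 and 2429 CPM in saline 3, where the bleomycin libraries had 768 to 1478 CPM and the other saline libraries 535 to 1143 CPM. Of the 16, Pparg (6.23 and 6.75 CPM) and Car4 (51.2 and 70.8 CPM) were lowest in saline 2 and 3. Car4 is also in the endothelial list, whose summed level was lowest in the same 2 libraries (1775.5 and 2441.5 CPM). C1qa had 660 and 549 CPM in saline 2 and 3, where the bleomycin libraries had 23.8 to 150.1 CPM and the other saline libraries 62.4 to 130 CPM. Cd68 had 250 and 191 CPM in saline 2 and 3, where the bleomycin libraries had 18.1 to 51.7 CPM and the other saline libraries 12.0 to 28.6 CPM. The part of macrophage RNA in the values of Hmox1 and Slc25a37 was not tested. The 4 globins took 0.0832% of counts in saline 2 and 0.137% in saline 3.

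Tfrc, the transferrin receptor, had 215, 206 and 169 CPM in saline 1, 4 and 5, where the bleomycin libraries had 77.0 to 102 CPM and the other saline libraries 80.7 to 110 CPM. Of these 3 libraries only saline 5 was high in globins.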
